A study of Mus musculus with 7 samples.

Results

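The comparison set 1 library of mouse B cells after 30 h with BAFF against 1 library of unstimulated B cells at 0 h, 2 of the 7 RNA sequencing libraries of the series. Both held wild-type primary B cells of the C57BL/6 strain, and per the labels the unstimulated cells had no treatment. The other 5 libraries were anti-IgM, BAFF and the combination at 8 h, and anti-IgM and the combination at 30 h. Each condition was 1 library, so no difference below has a replicate check or a p-value. The series has no culture without stimulus among these libraries, so 30 h in culture and BAFF cannot be told apart in this comparison. The labels give neither the dose of BAFF nor how the B cells were isolated.

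BAFF is a cytokine of the TNF family that keeps mature B cells alive. Its receptor, encoded by Tnfrsf13c, relieves the block that TRAF3 places on the kinase NIK, after which the NF-kappaB precursor encoded by Nfkb2 is processed and pairs with RelB. In resting B cells this route is known for survival and metabolic fitness, while the antigen receptor, which anti-IgM cross-links, is the stronger trigger of growth and division.

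Expression is given as FPKM, fragments per kilobase of transcript per M mapped reads, summed over the assembled transcripts of a gene. The mapped reads recovered from the values were 20.54 M for BAFF at 30 h and 21.92 M for the unstimulated library, with 18.75 to 28.61 M over all 7. FPKM was assigned to 10462 genes in the BAFF 30 h library and 10689 genes in the unstimulated library. Comparison was limited to the 10044 genes with a transcript in each library and at least 1 FPKM in 1 of them. It was counted when log2(FPKM + 1) differed by at least 1 and the intervals of counting error did not overlap. Since each library was assembled separately, a gene can also differ because its transcripts were cut or joined differently, so the reads over its annotated exons were computed as a second measure. A counted gene was called held when these reads differed by at least 1 on the log2 scale in the same direction. The second measure is calculated from the same deposited values and is not independent of them.

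By these rules 509 genes were counted higher with BAFF at 30 h (5.07% of the genes compared) and 402 lower (4%). The second measure held for 181 of the higher genes (1.8% of those compared) and 144 of the lower ones (1.43%). The median difference over all genes compared was 0.07, with quartiles of -0.21 and 0.35, and 70.8% of the genes lay within 0.5 of 0. Among counted genes that did not hold, 89.4% were assembled in several pieces in at least 1 of the libraries, against 53.2% of those that held. The results below lean on held genes and name the others as such.

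**Figure D1:**
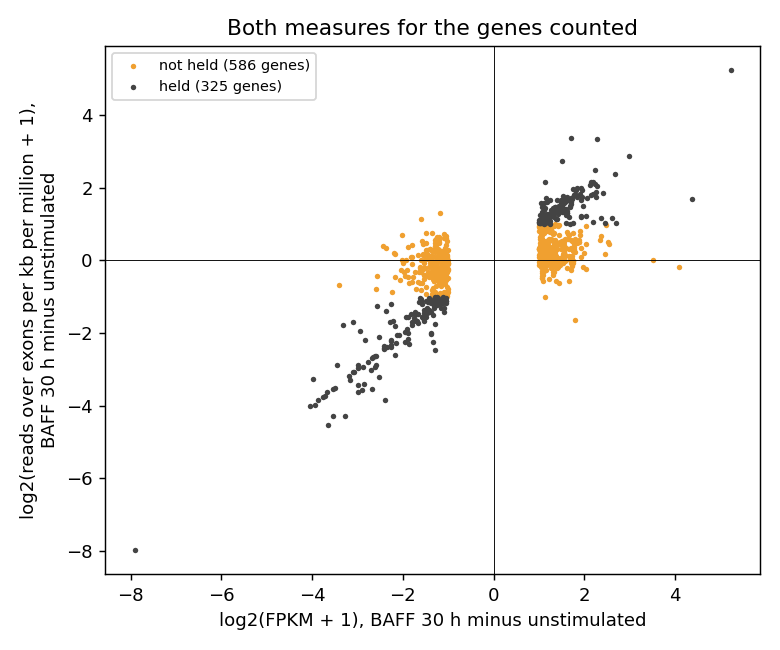
Each point is 1 of the genes counted, with the difference in log2(FPKM + 1) on the x axis and the difference in log2(reads over exons per kilobase per M reads + 1) on the y axis, both BAFF 30 h minus unstimulated. The 325 held genes lie along the diagonal, and the 586 others lie mostly near 0 on the y axis.

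The B cell label was checked against 15 B cell markers, of which 14 were compared. Ms4a1 (CD20) had 402 FPKM with BAFF at 30 h and 443 FPKM unstimulated, and Cd74, the class II invariant chain, had 5657 FPKM with BAFF at 30 h and 4505 FPKM unstimulated. The list had a median difference of -0.17, and its 1 counted member, Cd79b, did not hold. Cd79a, the partner of Cd79b, was assembled in the BAFF 30 h library at 733.8 FPKM and had no named transcript in the unstimulated one. Reads over its exons were present in both, at 655.7 per kilobase per M reads with BAFF at 30 h and 395.5 unstimulated.

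Promoter windows of leading genes are shown first, because the share of promoters with a motif differed between the gene groups below. The windows run from 250 bases before to 50 bases after the start of a gene and come from RefSeq (GRCm38.p6). They are printed 5′ to 3′ on the strand of the gene. For each gene only matches to the motif named next are in capitals. Matches to other motifs, such as an E2F match in Cdk1, were left in lower case. Capitals mark E2F motifs in Mcm6, CHR motifs in Cdk1 and Top2a, a sterol regulatory element in Hmgcs1 and a CRE in Dusp1. Ccl22, the gene with the largest difference upward, had no match to the kappaB letters given below. These 6 were picked from 22 windows of 19 genes after the matches were seen.
Ccl22, chr8:94745434-94745733, plus strand: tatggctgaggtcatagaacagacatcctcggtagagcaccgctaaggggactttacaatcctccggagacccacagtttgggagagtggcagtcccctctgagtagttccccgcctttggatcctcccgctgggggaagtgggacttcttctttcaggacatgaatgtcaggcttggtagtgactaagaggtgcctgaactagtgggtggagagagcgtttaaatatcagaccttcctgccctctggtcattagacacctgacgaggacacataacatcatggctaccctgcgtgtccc
Mcm6, chr1:128359656-128359955, minus strand: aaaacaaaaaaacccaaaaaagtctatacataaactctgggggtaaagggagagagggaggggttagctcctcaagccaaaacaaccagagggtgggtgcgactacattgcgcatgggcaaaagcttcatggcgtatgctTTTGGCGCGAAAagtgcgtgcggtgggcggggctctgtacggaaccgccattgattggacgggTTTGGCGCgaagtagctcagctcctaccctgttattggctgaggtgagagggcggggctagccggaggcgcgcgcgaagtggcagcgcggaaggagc
Cdk1, chr10:69352863-69353162, minus strand: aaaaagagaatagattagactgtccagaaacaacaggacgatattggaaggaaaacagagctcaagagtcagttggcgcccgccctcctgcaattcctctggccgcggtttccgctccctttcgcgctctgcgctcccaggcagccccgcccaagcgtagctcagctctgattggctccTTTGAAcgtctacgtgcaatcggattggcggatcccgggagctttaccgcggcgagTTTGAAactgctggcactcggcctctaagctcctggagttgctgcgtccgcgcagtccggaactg
Top2a, chr11:99024140-99024439, minus strand: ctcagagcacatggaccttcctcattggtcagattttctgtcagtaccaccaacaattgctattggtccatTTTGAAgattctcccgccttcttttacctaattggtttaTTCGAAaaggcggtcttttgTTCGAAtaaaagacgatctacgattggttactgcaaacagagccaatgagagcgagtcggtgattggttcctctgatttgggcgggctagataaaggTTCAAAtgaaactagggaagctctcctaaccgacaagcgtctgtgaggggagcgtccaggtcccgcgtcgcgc
Hmgcs1, chr13:119690101-119690400, plus strand: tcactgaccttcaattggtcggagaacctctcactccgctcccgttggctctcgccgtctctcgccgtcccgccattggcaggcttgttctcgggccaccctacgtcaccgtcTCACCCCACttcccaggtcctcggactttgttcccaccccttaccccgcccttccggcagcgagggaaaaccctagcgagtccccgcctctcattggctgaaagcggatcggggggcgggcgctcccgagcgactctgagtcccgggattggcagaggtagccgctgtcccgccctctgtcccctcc
Dusp1, chr17:26508423-26508722, minus strand: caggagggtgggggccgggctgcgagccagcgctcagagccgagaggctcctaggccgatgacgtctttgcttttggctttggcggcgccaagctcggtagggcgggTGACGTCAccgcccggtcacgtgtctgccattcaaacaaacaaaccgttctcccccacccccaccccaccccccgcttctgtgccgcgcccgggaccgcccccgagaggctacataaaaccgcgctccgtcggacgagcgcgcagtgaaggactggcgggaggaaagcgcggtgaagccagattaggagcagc

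The search covered 8 motifs on both strands in the 8160 of 10044 compared genes that had a window. Shares for a list cover every compared member with a window, whether or not it differed. They therefore describe the list and not the difference with BAFF at 30 h. E2F was TTTCCCGC, TTTGGCGC or TTTCGCGC and occurred in 16 of the 41 matched replication genes (39%), against 4.56% of all. CHR, the cell cycle homology region, was TTTGAA or TTCGAA and occurred in 67.2% of 64 matched mitosis genes, against 16.4% of all. CCAAT occurred in 67.2% of the mitosis genes and 43.6% of all. It was not particular to that list, with 61% of replication, 79.2% of sterol, 52.2% of immediate-early and 8.33% of macrophage genes. The sterol regulatory element TCACNCCAC was found in 1 of 24 matched sterol genes (4.17%), against 1.3% of all. The CArG box was found in 4 of 23 matched immediate-early genes (17.4%) and 1.51% of all, the CRE TGACGTCA in 13% and 3.74%, and the shorter TGACGT, which lies inside the CRE, in 34.8% and 14.4%. The kappaB motif occurred in 2.03% of 148 matched genes counted higher and held and in 2.25% of all. Of the genes looked at singly, 11 had a match within a window and 8 had none. The 8 were Ccl22, Il9r and Pim2 for kappaB, Rrm2 for E2F, Idi1 for the sterol element, and Fos, Nr4a1 and Junb for CArG. Sequence outside the windows was not searched, so these genes may carry the named motif further from the start. Nfkb2 had a kappaB match in each of its 3 windows, of which 2 overlap and share a match. A match is a run of letters in a short window and not evidence of binding, and the motifs were chosen with the list results known.

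Genes of the cell cycle made up the largest named group among the higher genes. Of 73 mitosis and spindle genes compared, 36 were counted higher and 32 of these held, with 1 lower that did not hold, and the list median was 1.02 against 0.07 for all genes. Cdk1, the kinase that drives entry into mitosis, had 25.5 FPKM with BAFF at 30 h (interval 23.2 to 27.8) and 4.54 FPKM unstimulated (3.61 to 5.47). Racgap1, which positions the cleavage furrow, had 30.4 FPKM with BAFF at 30 h and 5.09 FPKM unstimulated, and Cdca3, which promotes destruction of mitotic inhibitors, had 27.6 FPKM with BAFF at 30 h and 5.49 FPKM unstimulated. For Racgap1 the difference was 5.97-fold by FPKM and 2.52-fold by exon rates. Birc5 (survivin), a subunit of the chromosomal passenger complex, had 26.5 FPKM with BAFF at 30 h against 5.99 FPKM unstimulated. The intervals of these genes did not overlap between the libraries. Cenpf, a kinetochore protein, was counted lower, at a difference of -1.60, but did not hold.

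Replication genes differed in the same direction. Of 50 compared, 18 were counted higher and all 18 held, while Cdt1, which loads the replicative helicase, was counted lower and did not hold. The list median was 0.72. Cdc6, which also loads the helicase, had 8.27 FPKM with BAFF at 30 h against 1.21 FPKM unstimulated, and Cdc45, part of the active helicase, had 14.6 FPKM with BAFF at 30 h against 3.17 FPKM unstimulated. Mcm6, a helicase subunit with 3 E2F matches in its window, 2 of them overlapping, had 57.7 FPKM (interval 55.7 to 59.7) with BAFF at 30 h and 21.3 FPKM (20.1 to 22.5) unstimulated. Mcm2, Mcm3, Mcm4, Mcm5 and Mcm7, the other subunits of that ring, were held higher as well. Top2a, which untangles chromosomes, had 40.1 FPKM with BAFF at 30 h and 9.72 FPKM unstimulated. Chaf1a, a histone chaperone of the fork, had 11.5 FPKM with BAFF at 30 h against 2.76 FPKM unstimulated.

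Supply and repair of DNA followed in smaller numbers. Of 26 nucleotide synthesis genes 4 were counted higher and 3 held, including the ribonucleotide reductase subunits Rrm2 (30.7 FPKM with BAFF at 30 h, 7.29 FPKM unstimulated) and Rrm1 (34.2 FPKM with BAFF at 30 h, 13.7 FPKM unstimulated). Of 42 repair and checkpoint genes 7 were counted higher, of which 6 held. Over all genes compared these shares were 5.07% and 1.8%. Brca2 was counted lower, but its exon reads differed by 0.74 in the other direction. Uhrf1, which recruits the maintenance methyltransferase to replicated DNA, had 36.8 FPKM with BAFF at 30 h and 7.55 FPKM unstimulated, and that enzyme itself, Dnmt1, was counted higher but not held. Among G1 regulators Ccna2 and Tfdp1 were held higher and Myc and Ccnd1 were held lower, while Ccnd2, Ccnd3, Cdk4 and E2f1 had differences of 0.52, 0.47, 0.61 and 0.64 and were not counted.

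These groups were set beside the other stimulated libraries, whose comparisons share the unstimulated library. Medians of the mitosis list were -0.10 for BAFF at 8 h and 1.02 for BAFF at 30 h, 1.5 for anti-IgM and 1.45 with both stimuli at 30 h. Replication genes had medians of 0.02 with BAFF at 8 h, 0.72 with BAFF at 30 h, 1.54 with anti-IgM at 30 h and 1.53 with both at 30 h. Mki67, a marker of dividing cells, had 19.3 FPKM with BAFF at 30 h, 34.1 FPKM with anti-IgM at 30 h and 30.4 FPKM with both, against 5.595 FPKM unstimulated. In bulk RNA a larger share of dividing cells and more of these transcripts per cell cannot be told apart.

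**Figure D2:**
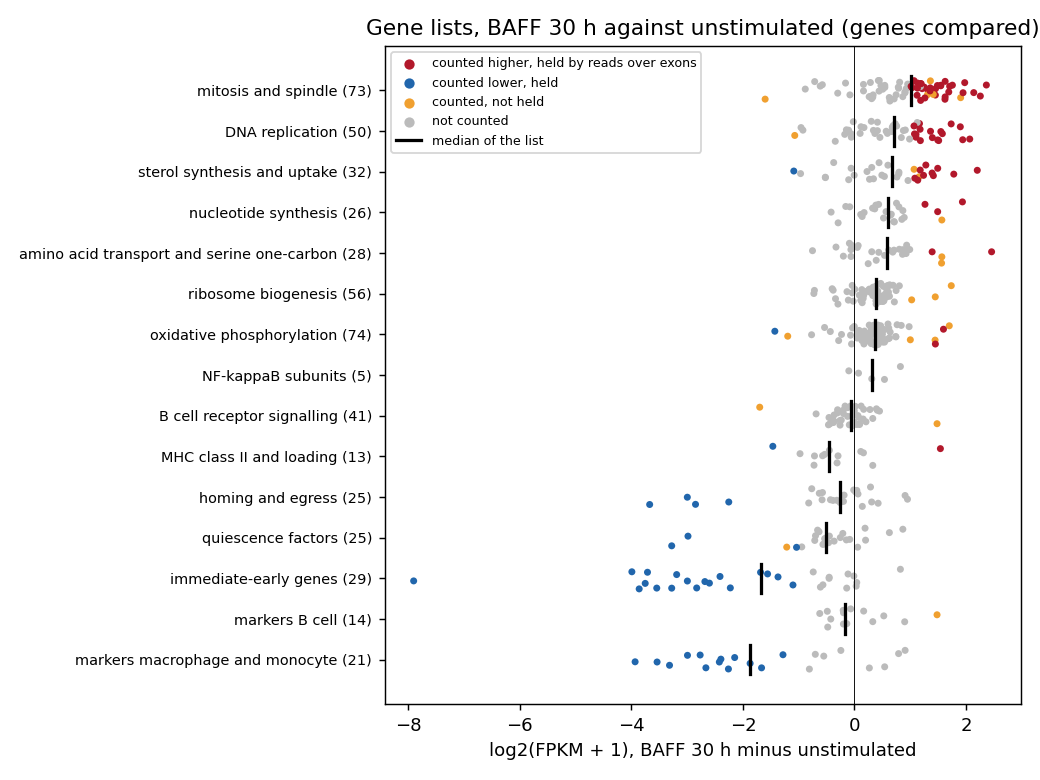
Each point is 1 compared gene of a list, placed by its difference in log2(FPKM + 1), BAFF 30 h minus unstimulated, with the number of genes compared in brackets and a black bar at the list median. The mitosis, replication and sterol lists lie to the right with medians of 1.02, 0.72 and 0.68, and the immediate-early and macrophage lists to the left with medians of -1.68 and -1.87.

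Sterol synthesis was the metabolic list with the most counted members. Of 32 genes compared 12 were counted higher and 10 held, and the median was 0.68. Idi1, which makes the isoprenoid building block, had 69.5 FPKM with BAFF at 30 h (interval 65.1 to 74.0) and 14.3 FPKM unstimulated (13.3 to 15.4). Sc4mol, an enzyme of the later steps, had 34.9 FPKM with BAFF at 30 h against 9.45 FPKM unstimulated. Fdps, which makes farnesyl diphosphate, had 58.2 FPKM with BAFF at 30 h and 21.2 FPKM unstimulated. Abcg1, an exporter of cholesterol, was held lower at 6.42 FPKM with BAFF at 30 h and 14.8 FPKM unstimulated.

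Other anabolic lists had positive medians with few counted genes. Amino acid and one-carbon genes had a median of 0.58, and 2 of the 4 counted higher held, Mthfd2 of mitochondrial folate metabolism (58.7 FPKM with BAFF at 30 h, 9.86 FPKM unstimulated) and Psat1 of serine synthesis (27.0 FPKM with BAFF at 30 h, 9.67 FPKM unstimulated). For Mthfd2 the difference was 5.95-fold by FPKM and 2.17-fold by exon rates. A further 8 members of that list, among them Slc7a11, Asns and Ddit3, were assembled in the BAFF 30 h library and not in the unstimulated one, and none was assembled only in the unstimulated one. Over all genes 416 were assembled only with BAFF at 30 h and 643 only unstimulated, and such genes were not counted. Ribosome biogenesis had a median of 0.38 with 3 of 56 counted higher and 0 held. Ribosomal protein genes had 2 of 75 counted higher and 3 lower, and for Rps25 and Rps15a the exon reads pointed the other way, so their FPKM differences are not read as expression. Oxidative phosphorylation genes had a median of 0.36 with 5 of 74 higher and 2 lower, of which 2 and 1 held. The 2 held higher, Ndufs3 and Cox5b, differed by only 0.40 and 0.78 in the fragments of their own transcripts per M reads. Over all genes compared 5.07% were counted higher and 4% lower.

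The NF-kappaB subunits differed by less than the counting threshold. Nfkb2 had 134.1 FPKM with BAFF at 30 h (interval 130.9 to 137.3) against 75.3 FPKM unstimulated (72.3 to 78.3), a difference of 0.82, and Relb had 60.1 FPKM with BAFF at 30 h against 41.1 FPKM unstimulated, a difference of 0.54. Rel, Nfkb1 and Rela differed by 0.31, 0.07 and -0.10. Over time with BAFF, Nfkb2 had 75.3 FPKM at 0 h, 183.8 FPKM at 8 h and 134.1 FPKM at 30 h, and Relb had 41.1, 101.5 and 60.1 FPKM at 0, 8 and 30 h. At 30 h with anti-IgM alone Nfkb2 had 66.1 FPKM, and with both stimuli 182.6 FPKM. Among inhibitors, Nfkbia differed by 0.42 and was not counted, Nfkbiz was held lower with a difference of -1.49, and Nfkbib was counted higher but not held. Nfkbie had 46.7 FPKM with BAFF at 30 h and no named transcript in the unstimulated library.

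The receptors and adaptors of BAFF were close to their unstimulated values. Tnfrsf13c, the BAFF receptor, had 133.1 FPKM with BAFF at 30 h and 83.8 FPKM unstimulated, but its exon reads differed by -0.01. Tnfrsf13b, which encodes TACI, had 126.9 FPKM with BAFF at 30 h against 123.4 FPKM unstimulated. Traf3, the adaptor that the receptor engages, and Birc3, a ubiquitin ligase bound to it, differed by 0.26 and 0.25. Traf1, a known NF-kappaB target, was counted higher at 37.6 FPKM with BAFF at 30 h against 18.2 FPKM unstimulated and did not hold, with exon reads at 0.92.

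Of 15 genes reported as BAFF-responsive in earlier work, Pim2 was held higher, H2-DMb2 was held lower and the others were not counted, for a median of -0.21. The fragments of H2-DMb2 transcripts differed by only -0.01, so it is not read as a change in expression. Pim2, a kinase that promotes B cell survival, had 59.8 FPKM with BAFF at 30 h (interval 57.5 to 62.2) and 19.5 FPKM unstimulated (18.0 to 21.1). It was also above the unstimulated value in the other stimulated libraries, at 65.7 FPKM with anti-IgM and 93.9 FPKM with both at 30 h. Icosl, the ligand of the T cell costimulator ICOS, had 152 FPKM with BAFF at 30 h, 13.1 FPKM with anti-IgM and 24.4 FPKM with both at 30 h, and 117 FPKM unstimulated. Ltb, lymphotoxin beta, had 479.7 FPKM with BAFF at 30 h, 36.1 FPKM with anti-IgM and 148.9 FPKM with both at 30 h, and 235.7 FPKM unstimulated. Ltb, which is not in that list of 15, was counted higher with an exon difference of 0.96, just short of holding. Fcer2a, the low-affinity IgE receptor, had 237.6 FPKM with BAFF at 30 h and 96.7 FPKM with anti-IgM at 30 h, against 333.2 FPKM unstimulated.

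Survival genes had differences in both directions. Among 15 pro-survival genes 3 were counted higher, of which Pim2 and the mitotic Birc5 held, and Pim3 was counted lower without holding. Shares over all genes compared were 5.07% counted higher and 4% lower. Bcl2l1 had 6.38 FPKM with BAFF at 30 h (interval 5.197 to 7.57) and 3.01 FPKM unstimulated (2.30 to 3.71), a difference of 0.88 that was not counted, and it had 33.1 FPKM with anti-IgM at 30 h. Pim1, a kinase related to Pim2, had 28.3 FPKM with BAFF at 30 h and 52.4 FPKM unstimulated, a difference of -0.86 that was not counted, and its exon reads differed by -0.83. Bcl2 differed by -0.49, and Mcl1 by -0.21 in FPKM but 0.40 in exon reads. In the pro-death list, 1 of 16 genes was counted, Pmaip1, which encodes the apoptosis promoter NOXA, at 7.61 FPKM with BAFF at 30 h and 71.4 FPKM unstimulated. Bcl2l11, which encodes BIM, had 15.6 FPKM with BAFF at 30 h against 9.81 FPKM unstimulated.

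The largest difference upward was in Ccl22, a chemokine that attracts T cells carrying the receptor CCR4. It had 103 FPKM with BAFF at 30 h (interval 99.8 to 106) and 1.78 FPKM unstimulated (1.31 to 2.24), a difference of 5.23. With BAFF it had 1.78 FPKM at 0 h, 25.04 FPKM at 8 h and 103 FPKM at 30 h, and at 30 h it had 40.8 FPKM with anti-IgM and 68.3 FPKM with both. Il9r, a cytokine receptor chain, had 64.2 FPKM with BAFF at 30 h and 12.9 FPKM unstimulated, with 4.90 FPKM under anti-IgM and 31.3 FPKM under both at 30 h. The Il9r value with BAFF at 8 h was 66.7 FPKM, close to the value at 30 h. Cxcl16, a membrane-bound chemokine, had 18.0 FPKM with BAFF at 30 h and 3.99 FPKM unstimulated, 4.51-fold by FPKM and 2.73-fold by exon rates. Socs2, an inhibitor of cytokine signalling, had 7.35 FPKM with BAFF at 30 h against 1.58 FPKM unstimulated.

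**Figure D3:**
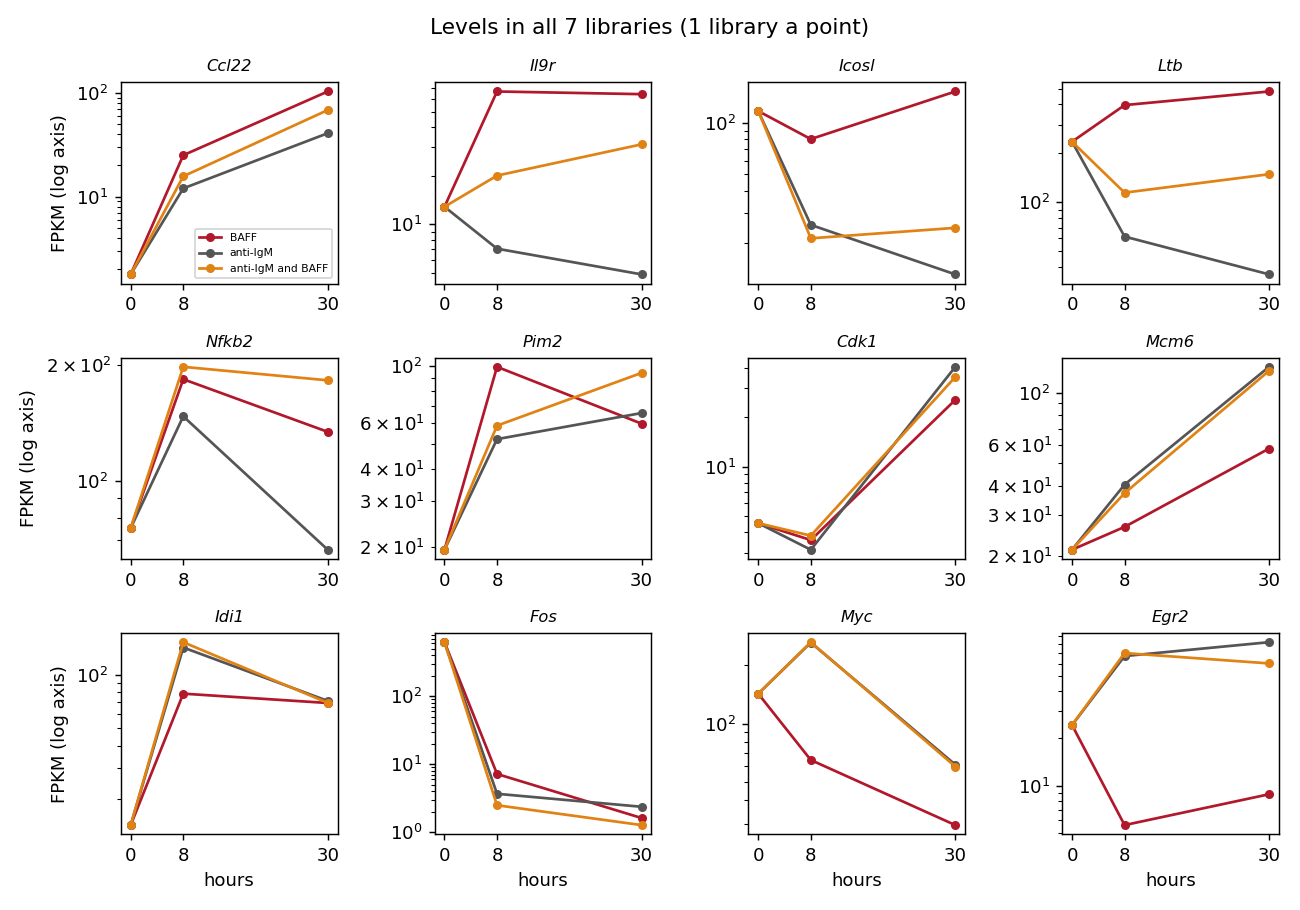
FPKM on a log axis against hours for 12 genes, 1 library a point, with the unstimulated library as the 0 h point of all 3 lines. Ccl22 had 103 FPKM with BAFF at 30 h, the highest of its 7 values, and the BAFF lines of Il9r, Icosl and Ltb lie above the anti-IgM lines at 8 h and 30 h.

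The rest of the 12 largest differences upward mixed genes that held and genes that did not. Amigo2, an adhesion molecule, had 35.1 FPKM with BAFF at 30 h and 3.56 FPKM unstimulated, and Scand1, a zinc finger partner protein, had 104.4 FPKM with BAFF at 30 h against 15.4 FPKM unstimulated, and both held. Ttll3 held, with a 29.04-fold difference by FPKM and 3.54-fold by exon rates. It lies within 1000 bases of Arpc4, Rpusd3 and Tada3, and Amigo2, Scand1 and Mef2b also have an annotated gene that close. Reads of neighbours joined in assembly could therefore not be separated for any of them. The same limit applies to 30.2% of all held genes and 36% of the counted genes that did not hold. Held genes named above with such a neighbour include Pim2, Cdca3, Cdc45, Chaf1a, Ccna2 and Fdps. BC090627, Snx22 and Rps2 did not hold, with exon reads that differed by -0.18, 0.01 and 0.43. Iqgap3, Igf1r and Tert did not hold either, at low exon rates where the added 1 limits the difference. Iqgap3, a scaffold protein, had exon rates of 1.10 per kilobase per M reads with BAFF at 30 h and 0.0771 unstimulated, a 14.2-fold difference against 10.04-fold by FPKM. Igf1r, the receptor of insulin-like growth factor 1, had exon rates of 0.472 with BAFF at 30 h and 0.0405 unstimulated, 11.7-fold against 10.9-fold by FPKM. The unstimulated exon rates rest on only 9.6 fragments for Iqgap3 and 10.6 for Igf1r. With BAFF at 30 h their FPKM was summed over 5 and 7 pieces, against 1 piece each unstimulated. Tert, the telomerase catalytic subunit, differed by 3.24-fold in exon rates against 8.35-fold by FPKM. Among B lineage factors, Mef2b, Lef1 and Id3 were held higher, with Mef2b at 14.3 FPKM with BAFF at 30 h against 2.52 FPKM unstimulated. Ddit4, an inhibitor of the mTOR complex, had 83.4 FPKM with BAFF at 30 h and 17.4 FPKM unstimulated, 4.80-fold by FPKM and 2.16-fold by exon rates. Fabp5, a fatty acid carrier, and Chst10, a sulfotransferase, were chosen after their values were seen and had 45.2 and 27.1 FPKM with BAFF at 30 h against 8.75 and 6.92 FPKM unstimulated.

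**Figure D4:**
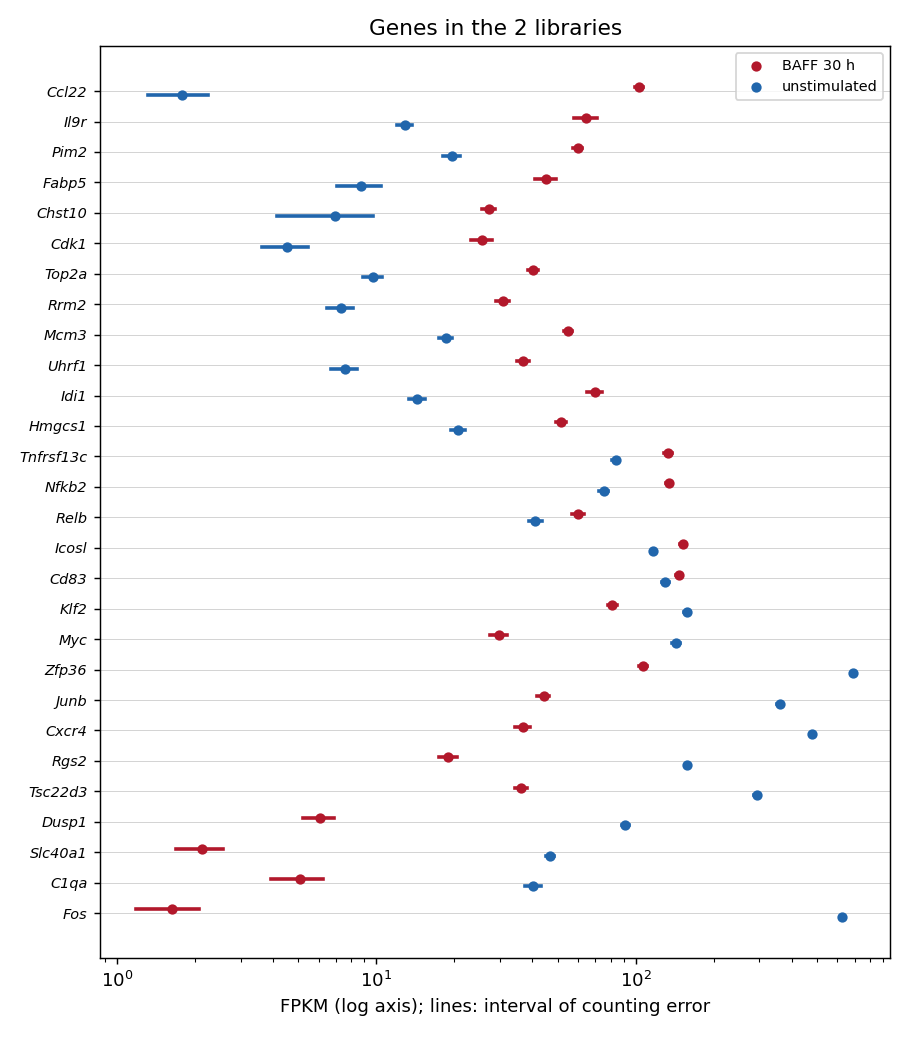
FPKM on a log axis for 28 genes in the BAFF 30 h library (red, upper point) and the unstimulated library (blue, lower point), with lines for the interval of counting error. Ccl22 at the top lies at 103 FPKM with BAFF and 1.78 FPKM unstimulated, and Fos at the bottom at 1.63 FPKM with BAFF and 627 FPKM unstimulated, while Nfkb2, Relb, Icosl and Cd83 lie close together.

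Immediate-early genes, which cells transcribe within minutes of a stimulus without new protein, formed the largest group downward. Of 29 compared 18 were counted lower, all 18 held and 0 were higher, with a median of -1.68. Fos had 1.63 FPKM with BAFF at 30 h (interval 1.18 to 2.07) and 627 FPKM unstimulated (619.7 to 634.1), a difference of -7.90. Its partners Jun and Junb had 10.96 and 44.2 FPKM with BAFF at 30 h against 138.5 and 359 FPKM unstimulated. Nr4a1, a nuclear receptor, had 21.2 FPKM with BAFF at 30 h against 351.6 FPKM unstimulated, and Dusp1, a phosphatase of MAP kinases, had 6.05 FPKM with BAFF at 30 h against 91.3 FPKM unstimulated. Zfp36, which degrades cytokine transcripts, had 107 FPKM with BAFF at 30 h and 690.5 FPKM unstimulated. Rhob, a small GTPase, and Ppp1r15a, which restores translation after stress, were among the 12 largest differences downward at -3.86 and -3.75. Fosb had 86.1 FPKM unstimulated and no transcript in the BAFF 30 h library.

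In all 5 other stimulated libraries Fos was between 1.28 and 7.22 FPKM. Egr2 separated the stimuli, with 8.81 FPKM with BAFF at 30 h, 82.4 FPKM with anti-IgM and 60.3 FPKM with both at 30 h, and 24.4 FPKM unstimulated. Myc, a driver of growth, had 29.8 FPKM with BAFF at 30 h (interval 27.5 to 32.0), 61.2 FPKM with anti-IgM and 59.9 FPKM with both at 30 h, and 142.8 FPKM unstimulated (137.5 to 148.1). Gadd45b, Nr4a2, Nr4a3 and Dusp4 were among the 11 members not counted, at differences of 0.82, -0.01, 0.04 and 0.03.

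Of 35 heat shock and chaperone genes 3 were held lower, against 1.43% of all genes compared, and the 1 counted higher did not hold. Hspa1b and Hspa1a, near-identical heat shock chaperones whose reads may be shared, had 1.99 and 2.07 FPKM with BAFF at 30 h against 25.7 and 21.5 FPKM unstimulated, and Dnajb4 was the third. Dnajb9, a chaperone of the endoplasmic reticulum, had 12.3 FPKM with BAFF at 30 h against 54.9 FPKM unstimulated. Hist1h1c, a linker histone, had 7.62 FPKM with BAFF at 30 h and 96.7 FPKM unstimulated.

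Genes of homing and quiescence were partly lower. Of 25 homing genes 4 were held lower, against 1.43% of all genes compared, and 0 were higher. Cxcr4, the chemokine receptor for marrow and dark zone retention, had 36.7 FPKM with BAFF at 30 h (interval 34.3 to 39.1) and 479.1 FPKM unstimulated (470 to 488.2). Rgs1 and Rgs2, which shorten signalling from such receptors, had 11.5 and 18.9 FPKM with BAFF at 30 h against 88.7 and 157.9 FPKM unstimulated, and S1pr3 was the fourth. Ccr7 and S1pr1, used in lymph node entry and exit, differed by -0.01 and -0.20. Of 25 quiescence factors 4 were counted lower and 3 held, Klf4, Tsc22d3 and Btg1, with Tsc22d3 at 36.1 FPKM with BAFF at 30 h against 292.9 FPKM unstimulated. Klf2, which keeps lymphocytes resting, had 81.4 FPKM with BAFF at 30 h, 28.1 FPKM with anti-IgM at 30 h and 157.5 FPKM unstimulated, and was not counted. Cd69, an activation marker that opposes egress, was held lower at 12.3 FPKM with BAFF at 30 h against 84.3 FPKM unstimulated.

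MHC class II genes had a median of -0.45. H2-Ab1 was counted higher and held at 709.7 FPKM with BAFF at 30 h and 243.3 FPKM unstimulated, but the fragments of its transcripts per M reads differed by -0.32, and its longest assembled transcript had 2486 bases with BAFF at 30 h and 8476 bases unstimulated, where H2-Ob lies within 1000 bases. H2-DMb2, described above, was counted lower and held. Neither is therefore read as a change in expression. H2-Eb1, H2-Aa and Ciita, the class II master regulator, differed by -0.45, -0.31 and -0.53. The receptor signalling list, with 41 genes compared, had 1 counted each way and 0 held, for a median of -0.07.

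Markers of macrophages and monocytes were lower in the BAFF 30 h library and stand beside the lower genes above. Of 30 markers 21 were compared, 13 were held lower and 0 were higher, with a median of -1.87 and a summed level of 246.9 FPKM with BAFF at 30 h against 616.3 FPKM unstimulated. C1qa, of the complement factor that macrophages make, had 5.08 FPKM with BAFF at 30 h and 40.3 FPKM unstimulated, Csf1r, the receptor for their growth factor, had 4.74 FPKM with BAFF at 30 h against 29.2 FPKM unstimulated, and Slc40a1, the iron exporter, had 2.12 FPKM with BAFF at 30 h against 46.6 FPKM unstimulated. Lyz2 and Emr1 (F4/80) were not lower, at 19.8 and 48.2 FPKM with BAFF at 30 h against 16.3 and 32.8 FPKM unstimulated. Cd14, Lyz1, Fcgr1, Fcgr3 and Cd163 were assembled only in the unstimulated library, and Cd68 and Apoe only in the BAFF 30 h library. Hmox1, already among the 13 held lower, had a difference of -3.54. Vcam1 and Il1b, also known from macrophages, had differences of -2.99 and -3.45. In the other stimulated libraries the summed level of the list was 89.39 to 252 FPKM. The 144 genes held lower included 18 of the immediate-early list and 13 of the macrophage list, with 0 in both.

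Fewer cells of a type and less RNA per cell cannot be told apart in bulk libraries, and the part of macrophages in the lower genes was not tested. Of 3 red cell markers compared 1 was held lower. This was Beta-s, a beta globin gene, with 12.2 FPKM with BAFF at 30 h and 218.5 FPKM unstimulated. The other 2 differed slightly upward, by at most 0.15, for a list median of 0.10. A further 2 red cell markers were assembled only in the unstimulated library. Igj, the joining chain of secreted antibody, had 9.19 FPKM with BAFF at 30 h against 38.2 FPKM unstimulated, while Prdm1 and Xbp1, factors of plasma cells, differed by 0.69 and 0.82 and were not counted. Among T cell markers Cd4 was held lower at 1.14 FPKM with BAFF at 30 h against 4.62 FPKM unstimulated. Lck and Tcf7, which activated or developing lymphocytes also use, were held higher, while Cd3d, Cd3e and Cd3g were not among the genes compared. The T cell list summed to 54.04 FPKM with BAFF at 30 h and 37.69 FPKM unstimulated, with 30.54 to 115.8 FPKM in the other stimulated libraries. Which cells gave the Lck and Tcf7 reads was not tested. Of 13 NK cell markers 3 were compared, with Klrd1 held lower, and of 7 dendritic cell markers compared 0 were counted. A further 5 dendritic cell markers, 3 neutrophil markers and 2 NK cell markers were assembled only in the unstimulated library, and 0 of these lists only in the BAFF 30 h library. Over all genes these numbers were 643 and 416. With unassembled members at 0 the dendritic cell list had a median of -0.58, against -0.09 over the 7 compared. The neutrophil markers summed to 0 FPKM with BAFF at 30 h, as in the other stimulated libraries, against 6.87 FPKM unstimulated, and none was compared. Transferrin (Trf), at 1.51 FPKM with BAFF at 30 h and 30.5 FPKM unstimulated, completes the 12 largest differences downward.

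The remaining lists are given beside the shares over all genes compared, 5.07% counted higher and 4% lower, with 1.8% held higher and 1.43% held lower. Among them, 7 of 22 histone and chromatin assembly genes were counted higher and 4 held, with 2 held lower, and 2 of 22 hypoxia genes, Ddit4 and Adm, were held higher. Of 21 cytokines and chemokines 2 were held higher, Ccl22 and Cxcl16, and 4 lower. Among cytokine receptors and STATs 4 of 43 were counted higher and 2 lower, with Il9r, Csf2rb and Socs2 held higher and Socs3 held lower. The 2 of 43 counted lower are near the 4% over all genes. Germinal centre and plasma cell genes had 4 of 22 held higher and 1 lower. Follicular and marginal zone genes had 2 of 26 held each way, with Dtx4 and Lck higher and Hes1 and S1pr3 lower. Lck is also among the T cell markers above. Coreceptors, costimulatory molecules and endoplasmic reticulum folding genes had 0 counted higher and 2, 4 and 2 counted lower, with Lair1 the coreceptor and Vcam1, Cd69 and Plaur the costimulation members held. Interferon-stimulated genes had 1 of 42 counted lower and 0 held, for a median of -0.03. Glycolysis, fatty acid and polyamine genes had medians of 0.37, 0.32 and 0.33 with 1, 0 and 0 held higher. Lysosome, class I and p53 target lists had medians of -0.06, -0.05 and -0.09. Iron handling genes had 3 of 16 held lower, Slc40a1, Trf and Hmox1, of which Slc40a1 and Hmox1 are also in the macrophage list.

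Assembly in 1 library only concerned 416 genes for BAFF at 30 h and 643 for the unstimulated library. These were not counted, because genes that every cell uses were among them. Polr2e, a subunit of RNA polymerase II, was absent from the BAFF 30 h assembly and had 68.9 FPKM unstimulated, and Ppia, an abundant folding enzyme, had 2033 FPKM with BAFF at 30 h and no named transcript unstimulated. Both were chosen after their values were seen.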

How the data were processed

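The 7 libraries were made from poly-dT primed RNA with TruSeq kits, per the labels' protocols. Per the submitters' processing notes the tools were CASAVA 1.8.2, TopHat2 2.0.5, Bowtie2 2.0.0.7 and Cufflinks 2.0.2 with the mm10 build. The deposited values are FPKM of transcripts assembled in each library separately by the authors, with lower and upper bounds. Each bound was taken to lie 2 standard deviations of counting from the value. A merged transcript set without expression values supplied gene names.

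Transcripts of at least 300 bases took the gene name with the most same-strand exon overlap, and FPKM was summed per gene, with bounds combined as the root of summed squares. Pieces under 300 bases, with 66.6% to 74.35% of all FPKM in a library, were left out. Mapped reads were recovered from FPKM, bounds and transcript length. Reads over exons were calculated from every piece on either strand over annotated exons. A neighbour lay within 1000 bases. The members, the 49 gene lists and the rule for named genes were chosen with earlier results of these data known. That rule took the 12 largest differences each way at 5 FPKM or more, leaving out immunoglobulin and T cell receptor segments, small RNAs, mitochondrial and predicted genes, the 4 largest counted members of each list, and a fixed set of NF-kappaB, survival, growth and activation genes. Other genes in the text, including list members beyond these 4, were picked with their values in view. The naming at first let unstranded transcripts take a gene on either strand and was changed to the same strand after values of Icosl and H2-Ab1 had been seen. An earlier form of the exon measure, weighted by FPKM, was replaced before calls were looked at. The fragments of a gene's own transcripts were added as a further measure after H2-Ab1 was seen. No p-value was computed. Gene counting was checked on simulated counts. Python 3.11.15, numpy 2.4.6, scipy 1.17.1, pandas 2.3.3, matplotlib 3.10.9 and bedtools 2.31.1 were used. A few named genes are not reported here.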

Additional observations from a re-analysis of the deposited data

How the results depend on the processing

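No paired analysis was possible because each condition was 1 library. The counts of 509 genes higher and 402 lower moved most with the threshold and the second measure. A pseudocount of 5 gave 219 higher and 196 lower, a difference of 1.5 gave 141 and 143, and requiring the exon reads to differ gave 181 and 144. Requiring also the fragments of the transcripts to differ, chosen after seeing the data, gave 165 and 130. The most abundant transcript alone gave 265 lower. Equal medians gave 424 higher and 478 lower, and naming unstranded transcripts on either strand, also added later, gave 564 and 437. The remaining settings, a pseudocount of 0.1, other filters, no intervals, upper-quartile scaling and transcripts of any length, kept both counts within 1.5 times. Among lists, the immediate-early median moved to -2.41 with a 5 FPKM filter, against -1.68, and kept its direction. T cell markers turned to 1.04 with that filter and 0.42 by exon reads, and plasma cell markers to -0.10 with that filter, -0.10 with unassembled genes at 0 and -0.0675 by exon reads. Among named genes the direction turned by exon reads for BC090627 (-0.18), Brca2 (0.74), Rps25 (0.38), Rps15a (0.0908), Erap1 (-0.0869), Creld2 (0.58) and Socs1 (0.38), by the most abundant transcript for Brca2 (0.14) and Sat1 (0.10), and by transcripts of any length for Tyms (-5.23) and Rsad2 (0.86). By fragments it turned for Snx22 (-0.24), Brca2 (1.18), Rps25 (0.15), Rpl7a (0.45), Rps15a (0.0913), H2-Ab1 (-0.32), Erap1 (-0.0025), Fcrl1 (0.29), Creld2 (0.51), Socs1 (0.48), Npc1 (0.13) and Ppt1 (-0.73). Of 161 named genes compared, 37 that were counted fell below the threshold by exon reads and 27 by fragments. Among 88 named genes that held, the fold by exon rates without a pseudocount, a measure added after seeing the data, was smaller than by FPKM by over 1.5 times in 9 and larger by as much in 10. The cause was not tested. The intervals cover counting error only.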
